A study of Mus musculus with 23 samples.

Results

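Hbegf and Tgfa encode ligands of the epidermal growth factor (EGF) receptor, and their RNA was compared between bigenic and monogenic mouse skin tumours. The members were chosen by gene symbol, as every probe whose only annotated symbol is Hbegf or Tgfa, which gave 2 of the 6795 genes in the table and 1 probe for each gene (2 of 9596 probes). Hbegf was picked from these tumours with its carcinoma result known, because it was among the 6 genes that passed the threshold there. The carcinoma ratios of both genes, and any difference between classes that uses them, are therefore given as descriptions with no test. The papilloma ratios were tested. The carcinoma call that chose Hbegf moved with the processing. It was kept in 6 of 13 other ways of processing and in 10 of 24 fits that each left out 1 tumour.

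Tumours came from FVB mice. The bigenic mice carried K5rTA and tetOTGFbeta, that is, a keratin 5 promoter driving a tetracycline-dependent activator and a TGF-beta transgene under its control. The monogenic mice carried K5rTA alone. Mice of both genotypes received 100 ug DMBA on the skin, a mutagen that initiates tumours. The labels then give a course of 5 ug of the promoter TPA 2 times a week for 20 weeks. Both genotypes were also given doxycycline chow (1 g/kg) for 48 h after a 3 h fast before the tumours were taken, so the drug is common to all groups and the transgene is the labelled difference. The labels give an age of 7 to 12 weeks for the mice, papillomas at 12 to 14 weeks of promotion and squamous cell carcinomas at 25 to 35 weeks, and tumour stage was checked on stained sections. By these labels papillomas were taken before the 20 weeks of TPA ended and carcinomas after, so the classes differ in TPA exposure. Keratin 5 marks basal keratinocytes, so transgene expression would begin in those cells, while the RNA came from whole tumours.

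Each of 23 two-colour arrays held 1 bigenic and 1 monogenic tumour of the same class, labelled with Cy3 and Cy5. The 14 papilloma arrays cover 11 pairs of extracts (8 bigenic and 7 monogenic tumours), and the 9 carcinoma arrays cover 7 pairs (5 bigenic and 4 monogenic tumours). The arrays held values for 6729 to 9573 probes, and their number limits the precision. Several tumours were used in more than 1 pair, and names such as 228A, 228B and 228C share a number. Nothing in the labels says if tumours of 1 number are from the same animal, and p-values cover only the spread between these pairs. Tgfb1 encodes a TGF-beta ligand, and its signs here are those of ratios turned by the dye of each tumour, as defined below. It was positive on the 5 papilloma arrays that measured it, all with the bigenic tumour in Cy3. On none of the 3 papilloma arrays in the other orientation was it measured. Of the 5 carcinoma arrays that measured it, the 2 that had the bigenic tumour labelled Cy5 gave positive ratios and the 3 labelled Cy3 gave negative ones, so Tgfb1 gives no settled check of the labels.

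HB-EGF and TGF-alpha are made as membrane-anchored precursors on the cell surface. Metalloproteases of the ADAM family cut them loose, and the freed ligands bind the EGF receptor, a tyrosine kinase that signals through Ras, the MAP kinases and PI3 kinase. In skin, keratinocytes make both ligands and respond to them in growth, migration and wound closure. Receptor activity in turn raises transcription of ligands, of early response genes and of feedback inhibitors.

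The RefSeq promoter of Tgfa (GRCm38.p6, chr6:86194972-86195271, plus strand, 250 bases before to 50 after a transcript start) is shown because the ratios of both ligands were on the same side in most carcinoma pairs (the promoter of Hbegf is not shown). Capitals mark the GC boxes, the letters bound by Sp1-type factors.

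Tgfa promoter: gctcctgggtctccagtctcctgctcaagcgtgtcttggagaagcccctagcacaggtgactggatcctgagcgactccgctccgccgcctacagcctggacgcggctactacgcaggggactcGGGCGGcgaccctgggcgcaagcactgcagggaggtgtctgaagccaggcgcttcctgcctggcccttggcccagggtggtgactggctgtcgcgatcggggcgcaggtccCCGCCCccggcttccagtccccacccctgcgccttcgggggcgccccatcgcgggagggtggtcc

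The window holds 2 GC boxes (GGGCGG on either strand), which begin at -126 and -15 from the start. At least 1 such box occurs in 35.7% of 32851 RefSeq promoter windows of this length, and at least 2 in 19.5%. Its GC content is 70.7%, above that of 91.4% of the windows, whose median is 52.7%. One Smad box (CAGACA on either strand), the short element that TGF-beta signalling factors bind, begins at -91 and is found in 21.0% of windows. No AP-1 element (TGAGTCA on either strand) and no TATA box (TATAAA on either strand) occur in these letters, against 5.20% and 13.6% of windows. None of the motif matches overlap, and each is a match of letters only. The arrays measured RNA, not binding to this promoter.

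All values below are log2 ratios turned by the dye of each tumour. A positive value means more RNA in the bigenic tumour if the deposited ratio is Cy5 over Cy3, and less if it is Cy3 over Cy5, because the sources used here do not state the numerator. The log base is also not stated and was taken as 2. Which sample is higher thus has 2 readings, and "positive" and "negative" are used for the sides. In RNA from whole tumours, fewer cells of a type and less RNA per cell cannot be told apart.

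Hbegf was on the negative side of all 9 carcinoma arrays. Its array values ran from -1.94 to -0.50 with a median of -0.86. As deposited, it was positive on the 7 carcinoma arrays with the bigenic tumour in Cy3 and negative on the 2 with it in Cy5, which are repeats of pairs also measured in Cy3. By pair, the ratio of 237 with 241A was -1.48, the most negative. It was -0.996 for 170 with 242, -0.86 for 1684A with 242 and -0.81 for 236 with 241A. It was -0.76 for 236 with 257A, -0.65 for 1687 with 221 and -0.50 for 237 with 257A. All 7 pairs were therefore negative, with a mean of -0.87 ± 0.313 (SD, n = 7). The fitted carcinoma ratio was -0.92 ± 0.18 (SE, 7 pairs), a 1.90-fold difference between the genotypes. That SE treats the pairs as independent, although shared tumours link them into 3 groups. With the linked groups as the replicate it was -0.82 ± 0.237 (SE). Of all 6413 genes tested, 20 (0.312%) had a lower fitted carcinoma ratio, and 0.0936% passed an adjusted p of 0.05 in either direction, 0.0624% on the negative side.

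Tgfa was on the negative side of 8 of 9 carcinoma arrays, from -1.29 to 0.09 with a median of -0.82. As deposited, it was positive on 6 of the 7 arrays with the bigenic tumour in Cy3 and negative on both with it in Cy5. The pairs 1684A with 242 and 1687 with 221 had the most negative ratios, -1.29 and -1.27. The ratio was -1.03 for 236 with 257A and -0.92 for 170 with 242. It was -0.53 for 237 with 241A and -0.35 for 236 with 241A, and 0.09 for 237 with 257A, the only positive pair. The 7 pairs averaged -0.76 ± 0.514 (SD, n = 7), with a fitted ratio of -0.76 ± 0.196 (SE, 7 pairs), a 1.70-fold difference. As for Hbegf, that SE treats the pairs as independent, although shared tumours link them into 3 groups. Of all 6413 genes, 46 (0.717%) had a lower fitted carcinoma ratio.

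**Figure D1:**
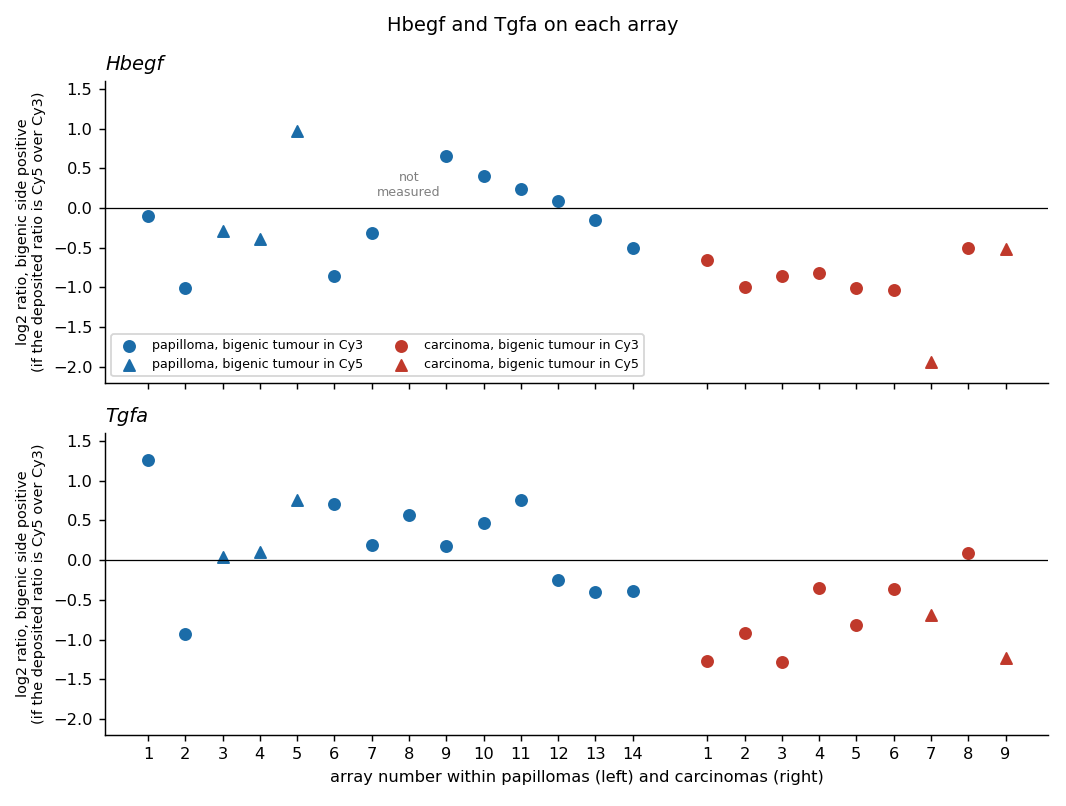
Log2 ratio of Hbegf (top) and Tgfa (bottom) on each array, by array number within papillomas (left) and carcinomas (right). Each point is 1 array, circles with the bigenic tumour in Cy3 and triangles with it in Cy5. All 9 carcinoma arrays are negative for Hbegf and 8 of 9 for Tgfa, while papilloma arrays lie on both sides of 0.

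Both ligands were measured on the same arrays and were negative together in 6 of 7 carcinoma pairs. They did not order the pairs alike. In the pair 237 with 241A Hbegf was at its lowest and Tgfa was at -0.53, and in 1684A with 242 Tgfa was at its lowest and Hbegf was at -0.86. Tgfa was below Hbegf in 3 of the 7 pairs.

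In papillomas the ligands had no common sign. Hbegf was negative in 6 of 11 pairs, and the array values ran from -1.002 to 0.97 with a median of -0.16 over 13 arrays, 1 array giving no value for it. Tgfa was positive in 7 of 11 pairs, and its array values ran from -0.93 to 1.26 with a median of 0.18 over 14 arrays. The fitted papilloma ratios were -0.10 ± 0.149 (SE) for Hbegf and 0.22 ± 0.157 (SE) for Tgfa, over 11 pairs each. Neither passed the threshold, with adjusted p of 0.88 and 0.689 by limma's moderated test with Benjamini-Hochberg adjustment over all genes. The test passed 0.0624% of genes in papillomas, 4 of 6413. A p above the threshold does not show that the genotypes have equal levels, and the SD between pairs was 0.58 for Hbegf and 0.63 for Tgfa.

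For Hbegf the papilloma values ran together by monogenic partner, a grouping by tumour name made after the values were seen. Monogenic tumour 257B was the partner in 3 pairs, which had the ratios -1.002 (with 1762D), -0.57 (with 1684B) and -0.35 (with 228A). Monogenic tumour 257CE was the partner of 228B and 228C, and the ratios were 0.97 and 0.66. The value for 228B rests on 1 of its 2 arrays, the other giving no value for Hbegf. The pairs of 257B averaged -0.64 ± 0.33 (SD, n = 3) and those of 257CE 0.82 ± 0.22 (SD, n = 2). The remaining ratios were between -0.51 and 0.40. These were 0.40 for 2145C with 2000F, 0.24 for 2145C with 2000E, 0.09 for 1762D with 2000D, -0.10 for 228A with 2000E, -0.16 for 1995B with 2000J and -0.51 for the only pair of 1961B. Bigenic tumour 1762D gave -1.002 against 257B and 0.09 against 2000D. The first of these was read on 1 array, the one with the widest spread (SD 1.20, where the median over arrays was 0.57). Tumour 228A gave -0.35 against 257B and -0.10 against 2000E. That gap is smaller than the all-gene median difference of 0.46 between the repeat arrays of 228A with 257B. Without monogenic papilloma 257B the fitted Hbegf ratio turned positive, at 0.20 (adjusted p = 0.957, limma), and over the 24 fits that each left out 1 tumour it ran from -0.26 to 0.20.

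For Tgfa the 2 pairs with monogenic tumour 2000E were the highest, 1.26 (with 228A) and 0.76 (with 2145C), with a mean of 1.01 ± 0.354 (SD, n = 2). The ratio was 0.67 for 228B with 257CE, 0.47 for 2145C with 2000F and 0.37 for 1684B with 257B. It was 0.17 for 228C with 257CE and 0.15 for 228A with 257B. The pair 1762D with 257B, measured on the array with the widest spread, had the lowest ratio, -0.93. The other negative pairs were 1995B with 2000J at -0.40, the only pair of 1961B at -0.39 and 1762D with 2000D at -0.25. Leaving that 1 array out moved the papilloma ratio of Tgfa from 0.22 to 0.31 and that of Hbegf from -0.10 to -0.02. Both ligands were positive together in 4 papilloma pairs and negative together in 3, while Hbegf was negative and Tgfa positive in 3 and the reverse in 1.

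**Figure D2:**
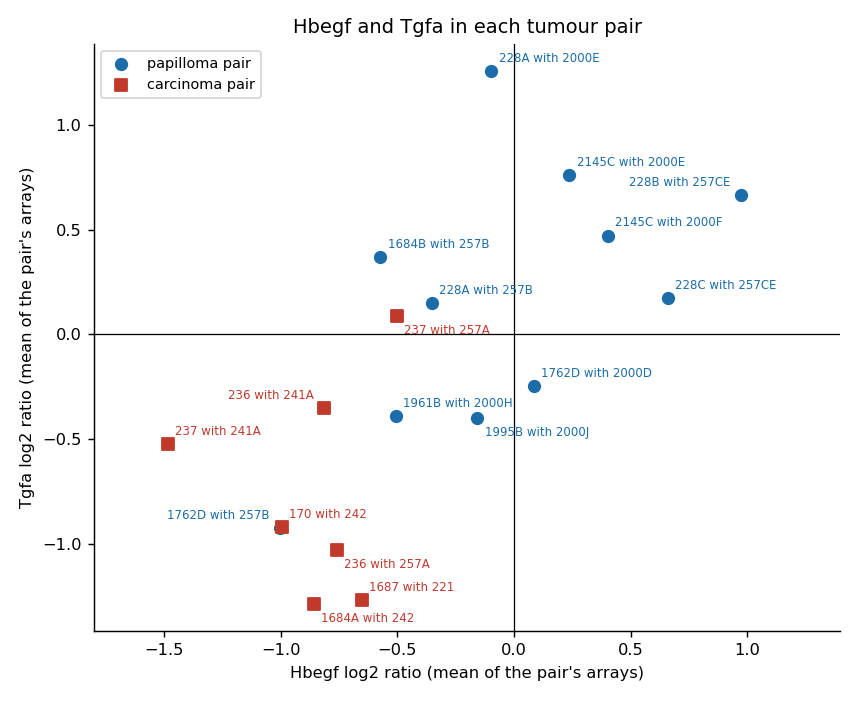
Log2 ratio of Tgfa against that of Hbegf in each tumour pair, with the mean of a pair's arrays as 1 point (11 papilloma pairs as circles, 7 carcinoma pairs as squares). Of the carcinoma pairs, 6 lie in the lower left, where both are negative, and the other (237 with 257A) has Hbegf negative and Tgfa at 0.09.

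Between the classes the fitted ratios differed by -0.83 ± 0.234 (SE, carcinoma minus papilloma) for Hbegf and -0.98 ± 0.251 (SE) for Tgfa. Of 6413 genes, 87 had a lower class difference than Hbegf and 56 a lower one than Tgfa, and 0.359% passed the threshold for a class difference, 0.265% on the negative side. The classes overlapped in each gene. For Hbegf, 8 of 11 papilloma pairs were above all carcinoma pairs and 1 of 7 carcinoma pairs was below all papilloma pairs. For Tgfa the counts were 7 of 11 and 3 of 7. No array held a papilloma and a carcinoma, so these are differences between 2 sets of ratios and not between levels in the classes.

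The ratios were also split by dye and by experiment number. With the bigenic tumour in Cy3 the carcinoma ratio of Hbegf averaged -0.84 ± 0.198 (SD, 7 arrays), and with that tumour in Cy5 -1.23 ± 1.0 (SD, 2 arrays). Tgfa averaged -0.70 ± 0.516 (SD, 7 arrays) and -0.97 ± 0.386 (SD, 2 arrays). In papillomas Hbegf averaged -0.15 ± 0.532 (SD, 10 arrays) in Cy3 and 0.10 ± 0.76 (SD, 3 arrays) in Cy5. The experiment numbers fall into 3 ranges, of which 8 carcinoma arrays lie in the second, where Hbegf averaged -0.96 ± 0.447 (SD, 8 arrays) and Tgfa -0.70 ± 0.472 (SD, 8 arrays). The papilloma arrays of that range averaged -0.17 ± 0.767 (SD, 3 arrays) for Hbegf and 0.41 ± 0.27 (SD, 4 arrays) for Tgfa. For Hbegf they ran from -0.85 to 0.66 and overlapped the carcinoma arrays of the range, which ran from -1.94 to -0.50. For Tgfa they ran from 0.17 to 0.71, against -1.29 to 0.09. Arrays of this range share tumours, and the carcinoma values belong to the contrast that chose the members. The share of all genes whose ranges lie apart in these arrays was not counted, so the Tgfa ranges are a description only. Class and range were not crossed in full, since no carcinoma array was in the first range.

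Pairs measured in both dye orientations show how far 2 arrays of the same extracts differ, which includes any effect of the dyes. For Hbegf the 2 carcinoma pairs differed by 0.49 (236 with 257A) and -0.91 (237 with 241A) between orientations, and the papilloma pairs by 0.56 (1684B with 257B) and -0.07 (228A with 257B). For Tgfa the differences were -0.42 and -0.33 in the same carcinoma pairs, and -0.67, -0.09 and 0.18 in papilloma pairs. Over all genes the median size of such a difference was 0.44 to 0.49 per pair. The 4 carcinomas 236, 237, 241A and 257A were hybridised in all 4 combinations, and the ratios around that loop should sum to 0. They summed to 0.93 for Hbegf and 1.29 for Tgfa, where the median size over 6082 genes was 0.95.

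**Figure D3:**
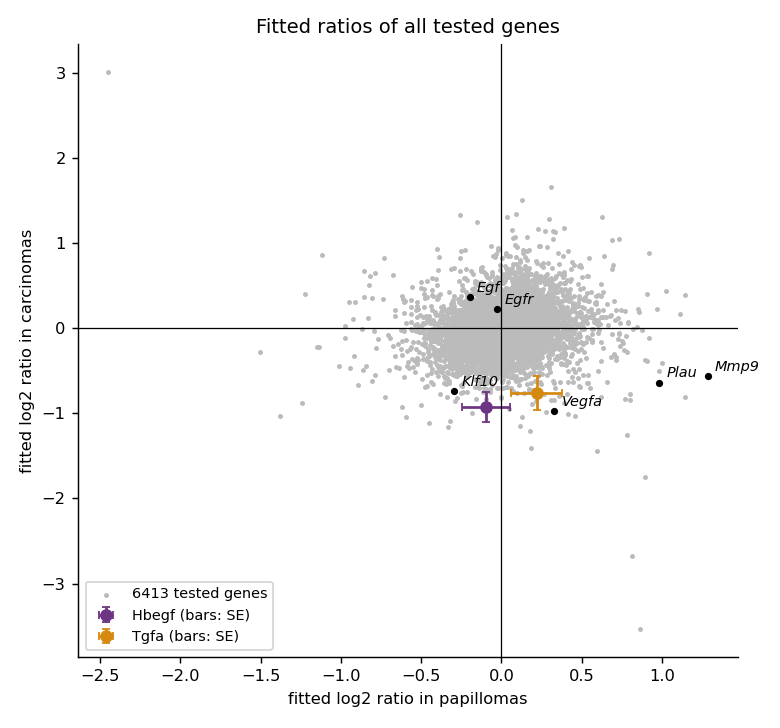
Fitted log2 ratio in carcinomas against that in papillomas for the 6413 tested genes (grey), with Hbegf and Tgfa in colour with SE bars and 6 pathway genes in black. Hbegf (-0.10, -0.92) and Tgfa (0.22, -0.76) lie below most genes on the carcinoma axis, near Vegfa and Klf10.

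Of the 9 other ligands of the receptor family that were looked up, 1 was measured, Egf itself. Egf was at -0.20 ± 0.168 (SE, 10 pairs) in papillomas and 0.37 ± 0.219 (SE, 6 pairs) in carcinomas, with adjusted p of 0.745 and 0.566 by limma. Of 4 receptors only Egfr, the receptor of both ligands, was measured. Egfr was at -0.03 ± 0.143 (SE, 10 pairs) in papillomas and 0.22 ± 0.165 (SE, 7 pairs) in carcinomas, with adjusted p of 0.971 and 0.663 (limma). Neither Egf nor Egfr passed in either class. The carcinoma ratio of Egf rests on the pair 1687 with 221, at 1.88, where the median of the 6 pairs was 0.13 and 2 were negative, and without tumour 1687 it was 0.11 (adjusted p = 0.895, limma).

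As a background for the lists that follow, 9.79% of all 6413 genes had an unadjusted p under 0.05 in papillomas, 10.8% in carcinomas and 7.72% for the class difference (limma), and 46.1% and 50.9% of all genes were negative in papillomas and carcinomas. The counts in the lists are descriptions beside these shares. Of 12 measured genes for ligand shedding and trafficking, 0 passed in either class, and 3 in papillomas and 2 in carcinomas had an unadjusted p under 0.05 (limma). Adam12, a metalloprotease that can cut HB-EGF from the membrane, was at 0.49 ± 0.212 (SE) in papillomas and 0.74 ± 0.277 (SE) in carcinomas, positive in 5 of 7 carcinoma pairs. Cd44, a cell surface receptor that can present HB-EGF, was at -0.04 ± 0.183 (SE) and -0.59 ± 0.228 (SE). Cd82, a tetraspanin, was at 0.52 ± 0.209 (SE) and 0.14 ± 0.261 (SE), and the protease gene Nrd1 was at -0.30 ± 0.143 (SE) and -0.14 ± 0.178 (SE). The smallest adjusted p in the list was 0.416 in papillomas and 0.298 in carcinomas (limma).

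Among 19 measured adaptors, Ras genes and kinases, 0 passed in either class, with 1 unadjusted p under 0.05 in papillomas and 3 in carcinomas (limma). The list was negative in 12 of 19 in carcinomas, at a median of -0.09 where all genes had -0.01. Src, a kinase that the receptor engages, was at 0.37 ± 0.131 (SE) in papillomas (10 of 11 pairs positive) and -0.40 ± 0.157 (SE) in carcinomas (6 of 7 negative). Eps8, a receptor substrate, was at 0.20 ± 0.234 (SE) and -0.73 ± 0.291 (SE), and Pik3r2, a regulatory subunit of PI3 kinase, at 0.09 ± 0.0999 (SE) and -0.30 ± 0.125 (SE). The adaptor gene Nck1 was at -0.09 ± 0.132 (SE) and 0.29 ± 0.158 (SE).

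Of 12 feedback inhibitors and genes of receptor turnover, 0 passed in either class, and each class had 2 unadjusted p under 0.05 (limma). In papillomas 10 of 12 were positive at a median of 0.13, where all genes had 0.02, and in carcinomas 6 of 12 at a median of 0.01. Cblb, a ubiquitin ligase that takes part in receptor downregulation, was at 0.43 ± 0.117 (SE) and -0.33 ± 0.145 (SE), with 10 of 11 papilloma pairs positive and 6 of 7 carcinoma pairs negative. Dusp6, a phosphatase induced by and acting on ERK, was at 0.20 ± 0.186 (SE) and -0.53 ± 0.232 (SE). Dusp5, a nuclear ERK phosphatase, was at -0.35 ± 0.149 (SE) and 0.03 ± 0.185 (SE), and Dusp2 was at 0.01 ± 0.104 (SE) and 0.23 ± 0.129 (SE).

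The 22 measured growth factor induced genes had 0 calls in either class and 1 call in the class difference as fitted here, with 9, 5 and 4 unadjusted p under 0.05 in papillomas, carcinomas and the difference (limma). In carcinomas 17 of 22 were negative at a median of -0.24, and their mean was negative in 7 of 7 pairs, from -0.34 to -0.04. In papillomas 15 of 22 were negative at a median of -0.17. The members of smallest p did not all share that sign. Plau, the urokinase gene, was at 0.98 ± 0.21 (SE) in papillomas and -0.64 ± 0.262 (SE) in carcinomas. Its class difference was -1.62 ± 0.336 (SE), with an adjusted p of 0.0332 by limma, and it was the only call in these pathway lists. The call was lost in 7 of 13 alternatives and in 13 of the 24 fits with 1 tumour left out, with adjusted p of up to 0.607 and 0.487 (limma). Papilloma pairs ran from -0.35 to 2.45 for Plau and carcinoma pairs from -1.696 to 0.60, so the classes overlapped.

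Klf10, a transcription factor that TGF-beta and growth factors induce, was negative in 7 of 7 carcinoma pairs at -0.74 ± 0.163 (SE), with an adjusted p of 0.0631 by limma, and negative in 10 of 11 papilloma pairs at -0.29 ± 0.131 (SE). Vegfa, the vascular growth factor gene, was at 0.33 ± 0.197 (SE) in papillomas and -0.97 ± 0.245 (SE) in carcinomas (adjusted p = 0.115, limma), with 6 of 7 carcinoma pairs negative. Mmp9, a gelatinase gene, was positive in 10 of 11 papilloma pairs at 1.28 ± 0.287 (SE, adjusted p = 0.101, limma) and at -0.56 ± 0.358 (SE) in carcinomas. Over all 67 measured pathway genes other than the members, 0 passed in either class, while 15 papilloma and 12 carcinoma values had an unadjusted p under 0.05. In carcinomas 41 of 67 were negative. These counts of calls moved with the processing, from 0 to 2 in papillomas, 0 to 3 in carcinomas and 0 to 2 for the difference over 13 alternatives. With equal spread on every array the adjusted p was 0.0311 for Plau and 0.0494 for Mmp9 in papillomas, and with Cy3 arrays alone it was 0.00542 for Klf10 and 0.034 for Vegfa in carcinomas (limma).

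**Figure D4:**
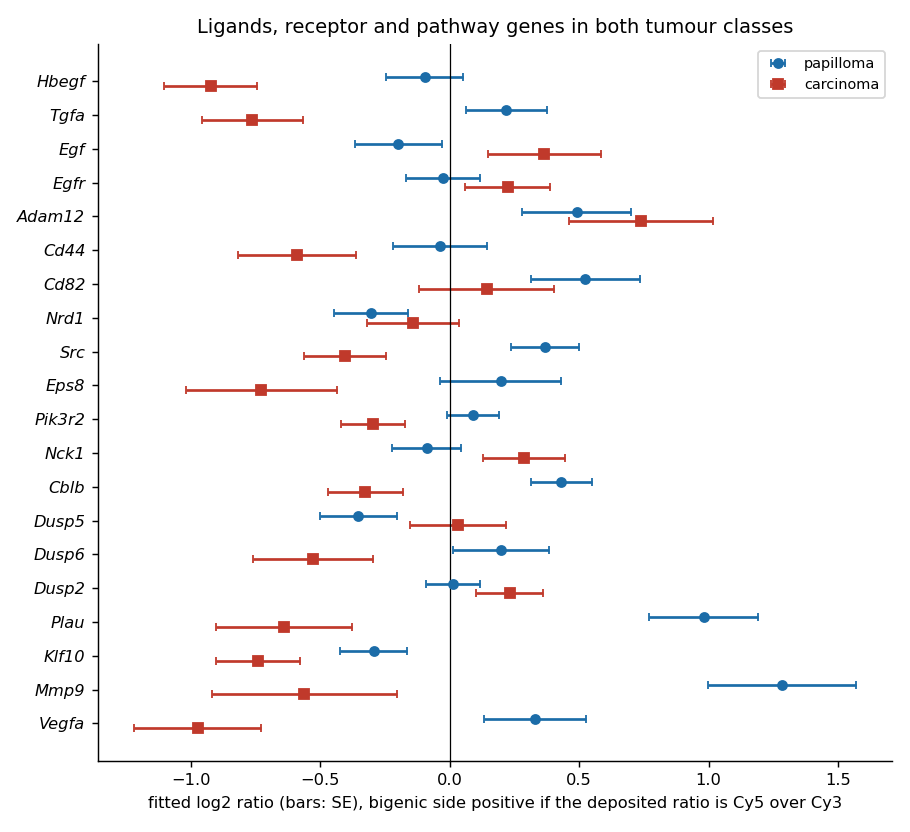
Fitted log2 ratios of Hbegf, Tgfa and the pathway genes named in the text, in papillomas (circles) and carcinomas (squares), with SE bars. Hbegf, Tgfa, Src, Cblb, Dusp6, Plau and Vegfa have lower values in carcinomas than in papillomas, and Egf and Egfr higher ones.

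The genes that varied most like each ligand across pairs were found by Pearson r after each class was centred on its mean, among 5929 genes measured in at least 16 of the 18 pairs. The pairs share tumours and arrays, and r is a description with no test. For Hbegf these were Melk, a mitotic kinase gene (r = 0.78, 16 pairs), C1qbp (0.76), Endog, a mitochondrial nuclease gene (0.72), Lsm12 (0.71) and Dbi (0.71, 18 pairs each for the last 4). Those most opposite were 9330102E08Rik (-0.79, 17 pairs), Rassf8 (-0.77) and Icam2 (-0.76). For Tgfa the most alike were Dhx9, an RNA helicase gene (0.89), Pdcd6ip (0.88), Tsg101, a component of the endosomal sorting machinery (0.87), Ube2q2 (0.87) and Pafah1b1 (0.86), over 18 pairs. Those most opposite were Nol4l (-0.85, 16 pairs), Lztfl1 (-0.85, 17 pairs) and Txlnb (-0.84).

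Within classes the 2 ligands themselves had r = 0.44 over 18 pairs. For Hbegf 475 genes were more alike than Tgfa was, and for Tgfa 1189 genes were more alike than Hbegf was. None of the genes most like either ligand had a fitted carcinoma ratio as negative as that ligand's, the lowest being -0.68 for Endog and -0.46 for Pdcd6ip.

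Because the table holds ratios, no level could be checked against defining markers, and no marker can be said to be absent. Marker lists of cells in skin tumours were compared as ratios in the same pairs. In carcinomas 4 of 5 basal keratinocyte markers were negative at a median of -0.33, and their mean per pair ran from -0.85 to 0.19. In papillomas 5 of 5 were negative at a median of -0.07, from -0.66 to 0.31 per pair. Of 4 suprabasal keratinocyte markers, 4 were negative in papillomas at a median of -0.72 and 3 positive in carcinomas at 0.43, and their mean ran from -2.48 to 1.22 and from -0.45 to 1.02. Of the basal keratinocyte markers 0 of 5 passed in carcinomas, 3 had an unadjusted p under 0.05 (limma), and their mean was negative in 4 of 7 pairs with a median of -0.02.

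Of 13 macrophage markers, 12 were positive in papillomas and 11 in carcinomas, at medians of 0.25 and 0.52, and their mean per pair ran from -0.89 to 0.90 and from -0.67 to 1.49. In carcinomas 9 of 13 had an unadjusted p under 0.05 (limma), and their mean was positive in 4 of 7 pairs. One of them, Chil3, passed on the negative side in carcinomas at -3.53 ± 0.504 (SE, adjusted p = 0.00303, limma). It is included in the macrophage means, which it lowers in carcinomas. With linked groups as the replicate, or with each class fitted on its own, 0 genes passed in carcinomas. Fibroblast markers were positive in 5 of 6 in carcinomas at 0.28 and negative in 4 of 6 in papillomas at -0.18, and the mean ran from -0.37 to 0.94 and from -1.68 to 0.85. Endothelial markers were positive in 5 of 5 in carcinomas at 0.17, from -0.44 to 1.02 per pair, and in 2 of 5 in papillomas, from -0.51 to 0.67. Skeletal muscle markers were positive in 10 of 12 in carcinomas at 0.26 and in 11 of 12 in papillomas at 0.57, and the mean ran from -1.69 to 3.08 and from -0.29 to 1.64. Neutrophil markers were negative in 4 of 6 in carcinomas at -0.26 and positive in 4 of 6 in papillomas at 0.18, and the mean ran from -1.36 to 0.46 and from -0.71 to 0.75. Hair follicle and sebaceous markers were positive in 3 of 4 in carcinomas at 0.80, with 0 past the threshold, 3 at an unadjusted p under 0.05 and a smallest adjusted p of 0.0594 (limma), and in 2 of 4 in papillomas at 0.05, and the mean ran from -0.19 to 1.04 and from -0.99 to 0.54. Lymphocyte markers were positive in 8 of 9 in carcinomas at 0.13 and 7 of 9 in papillomas at 0.08, mast cell markers in 3 of 4 at 0.35 and 4 of 4 at 0.25, and adipocyte markers in 2 of 3 at 0.35 and 2 of 3 at 0.30. The part of these cell types in the ligand ratios was not tested.

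**Figure D5:**
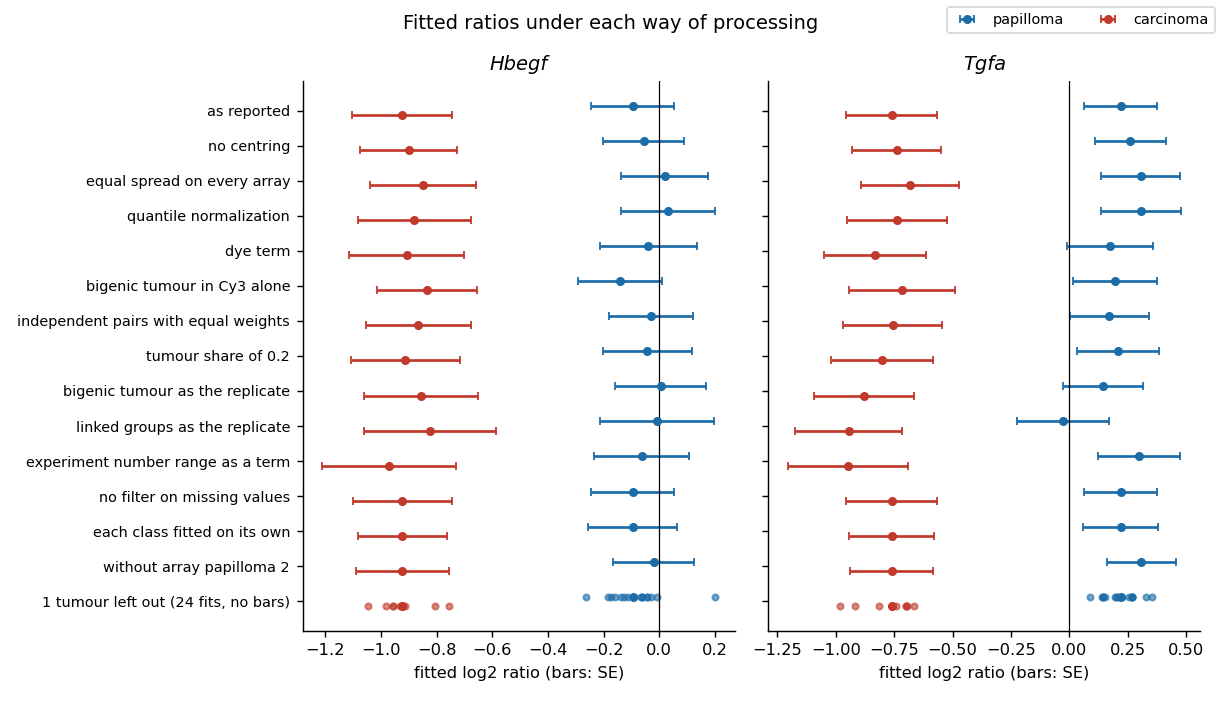
Fitted log2 ratios of Hbegf (left) and Tgfa (right) as reported and under each other way of processing, with SE bars, papillomas in blue and carcinomas in red. The last row shows 24 fits that each leave out 1 tumour. Carcinoma ratios lie between -0.97 and -0.82 for Hbegf and between -0.95 and -0.68 for Tgfa in the other 13 settings, and papilloma ratios between -0.14 and 0.03 for Hbegf and between -0.03 and 0.31 for Tgfa.

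The carcinoma ratios of both ligands stayed negative in every setting tried, and their papilloma ratios passed no threshold in any. In carcinomas Hbegf ran from -0.97 to -0.82 over 13 alternatives and from -1.05 to -0.76 over the 24 fits with 1 tumour left out, and Tgfa from -0.95 to -0.68 and from -0.98 to -0.66. Leaving out a papilloma tumour did not move these carcinoma ratios, so of the 24 fits only those without a carcinoma tumour check them.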

How the data were processed

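RNA of 24 tumours was compared on 23 two-colour arrays. The authors deposited 1 signed log ratio per probe and array, used here as log2. Its base and numerator, and how spots were scanned, corrected and normalized, are not stated in these sources. Arrays held from 6729 to 9573 probe values, with 0.24% to 29.9% missing. Each column was assigned to its sample through the column name.

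Of 9596 probes, 7486 had 1 gene symbol and were named, 483 had several and 1627 had none, and probes of a gene were averaged. Ratios were centred on each array's median and turned by dye, and repeat arrays of 1 pair of extracts were averaged, leaving 18 pairs. Tumour class and dyes are per the labels. Genes measured in at least 8 papilloma and 5 carcinoma pairs (6413) were fitted with 1 mean per class by generalised least squares, weighted by arrays, with a covariance for shared tumours whose share was estimated at 0. Statistics were moderated with limma 3.58.1 (R 4.3.3) and adjusted by Benjamini-Hochberg, with 0.05 as the threshold. Tested on simulated data of 6413 genes, the papilloma fit recovered 46% of genes changed by 0.5 and 92% of those changed by 1, with 9 false among 178 calls, and the carcinoma fit 26% and 86%, with 5 false among 160. The simulated noise was independent between pairs, so these figures do not cover the effect of tumours shared between the real pairs. The real fits called 4 genes in papillomas and 6 in carcinomas, against 178 and 160 in the simulation. With more genes changed, the adjusted threshold is easier to pass, so the recovered shares do not give the power of the real fits.

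The members, lists and named genes were chosen with earlier results of these data known. Named were the members, each measured ligand and receptor, the 4 genes of smallest p over both classes from each other pathway list, and for each member the 5 most alike and 3 most opposite genes by r. Alternatives were no centring, equal spread, quantile normalization, a dye term, Cy3 arrays alone, equal weights, a tumour share of 0.2, the bigenic tumour or linked groups as the replicate, the experiment number range as a term, no filter, each class alone, a replicate block and leaving out each tumour. Leaving out array papilloma 2, which had the widest spread, was chosen after seeing the data.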

Additional observations from a re-analysis of the deposited data

Results flagged for a closer look

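In carcinomas the pair 1687 with 221 stood apart from the other pairs for Egf, at a log2 ratio of 1.88 over 6 pairs, and without tumour 1687 the fitted ratio fell from 0.37 to 0.11. In papillomas the pair 1762D with 257B stood apart for Egfr, at 0.83 over 10 pairs, and that pair was measured on the array with the widest spread. Its gap to the next pair was 0.467 of the range of values, barely past the cutoff for 10 pairs. Of 23 groups of values examined this way, 2 held such a pair, and chance gives about 1 in 20 groups. Only groups of up to 10 pairs were examined. The papilloma values of Hbegf, Tgfa and every other gene with 11 papilloma pairs were therefore not examined. Plau differed between the classes, with a carcinoma minus papilloma value of -1.62 (adjusted p = 0.0332, limma). That call was lost in 7 of the 13 alternatives with values, and in 13 of the 24 fits with 1 tumour left out, while the sign stayed negative in all of them, with adjusted p from 0.0245 to 0.607 and from 0.0151 to 0.487 (limma).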

How the results depend on the processing

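Hbegf and Tgfa kept a negative carcinoma ratio and class difference in all 13 alternatives and 24 leave-one-tumour fits. Over these, the class difference ran from -0.91 to -0.69 and from -1.12 to -0.66 for Hbegf, and from -1.24 to -0.91 and from -1.20 to -0.85 for Tgfa. Leaving out a papilloma tumour or array papilloma 2, dropping the filter or fitting each class alone did not move the carcinoma ratios. Only the fits without a carcinoma tumour, and the other alternatives, could move those ratios. The papilloma ratio of Hbegf turned positive with equal spread (0.019), quantile normalization (0.031), the bigenic tumour as the replicate (0.0046) and without monogenic papilloma 257B (0.20, where the leave-one-tumour range was -0.26 to 0.20), and that of Tgfa turned negative with linked groups as the replicate (-0.027). Adjusted p for both stayed at 0.51 or above by limma. With the array number as a replicate block the class difference was -0.81 ± 0.279 (SE) for Hbegf and -1.08 ± 0.268 (SE) for Tgfa, and 10 genes passed it. The numbers did not pair the arrays, since the correlation of same-numbered arrays ran from -0.32 to 0.16 and 1 of 9 correlated best with its own number. Counts of genes over the whole table moved more, and the cause was not tested. In papillomas 4 genes passed as reported, 28 with equal spread, 27 with quantile normalization, 2 with Cy3 arrays alone or equal weights, 1 with a tumour share of 0.2 or without array papilloma 2, 8 with the number range as a term, and 0 with the bigenic tumour or linked groups as the replicate, where limma gave 623 and 583 genes at an unadjusted p under 0.05. In carcinomas 6 passed as reported, 2 with a dye term, 142 with Cy3 arrays alone, 44 with equal weights, 113 with the bigenic tumour as the replicate, 23 with the range, 18 without array papilloma 2, and 0 with linked groups or each class alone, where limma gave 972 and 499 genes at an unadjusted p under 0.05. For the class difference 23 passed as reported, 7 with a tumour share of 0.2 or the range, 14 with the bigenic tumour as the replicate, and 0 with linked groups (492 at an unadjusted p under 0.05, limma). With 1 tumour left out the counts ran from 0 to 7 in papillomas, 2 to 95 in carcinomas (2 without 241A, 95 without 257A) and 1 to 36 for the difference. Fits of each probe on its own were not run, because each member has 1 probe. The number of arrays limits the precision, and levels and signal over background cannot be read from ratios.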
